A study of Mus musculus with 18 samples.

Results

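Siglecs are sialic acid-binding, immunoglobulin-like lectins of the cell surface, and the transcripts described here are those of *Siglecf*, *Siglecg*, *Siglece*, *Cd33* and *Siglec1* in mouse eosinophils. These 5 genes of the 55029 listed were chosen by symbol, as Siglec receptors, and 4 other Siglec genes, of which only *Mag* had enough counts to be tested, are given beside them. The study asked how eosinophils respond to stimuli of type 1 and type 2 inflammation. Eosinophils came from the peritoneal cavity of C57BL/6 mice that carry an *Il5* transgene (line NJ.1638), expressed from a T cell promoter, which raises eosinophil numbers, and beads against surface proteins of T and B cells removed other cells. They were then cultured unstimulated, with heat-inactivated *E. coli*, with interferon-γ (IFN-γ), with IFN-γ and *E. coli* together, or with interleukin 4 (IL-4). The paper calls the replicates biological. Age, and whether the replicates of a group came from separate animals, are not given in the sources used here. The p-values thus measure only the spread between these samples.

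The 18 libraries fall into 2 sets by the layout of their files. One, called the type 1 set here after its stimuli, has 3 libraries each of unstimulated cells (a, b and c), *E. coli*, IFN-γ and IFN-γ with *E. coli*, with 1523808 to 2734041 counts on genes per library. The IL-4 set holds unstimulated cells (d, e and f) and IL-4, again 3 each, with 3625036 to 6482289 counts. No gene exceeded 4095 counts in any of the 12 libraries of the type 1 set, whereas the highest count of the IL-4 set was 191131. Levels in the sets may thus be on different scales, and each stimulus was compared with the unstimulated cells of its own set. Levels are given as CPM, a gene's share of the library's counts on the usual scale, after normalization by TMM. On this scale the floor of 3 counts lay at 1.003 to 2.19 CPM in the type 1 set and at 0.497 to 0.833 CPM in the IL-4 set, which covers counting error only.

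Replicates were set against each other by the chi-square per gene of their raw counts, which is larger for libraries that differ more and also grows with counts. Unstimulated e stood apart, at 21.4 with d and 19.8 with f, where d with f was at 7.17, IL-4 replicates at 3.51 to 4.89 and replicates of the type 1 set at 1.59 to 5.46.

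Most Siglecs read sialic acid on glycans of the same or of neighbouring cells. Many, Siglec-F, Siglec-G, and Siglec-E among them, carry inhibitory tyrosine motifs in the cytoplasmic tail, which recruit the phosphatases encoded by *Ptpn6* and *Ptpn11* and dampen activating signals. Siglec-F is a standard surface marker of mouse eosinophils, and its crosslinking by antibody drives these cells into apoptosis.

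The levels of 10 eosinophil markers are given beside the label of the cells. Their summed level was 3410 to 5122 CPM per library in the type 1 set and 4482 to 6110 CPM in the IL-4 set, led in each library by *Alox15* or *Ccr3*. In bulk samples such a sum cannot show which cells the transcripts came from. Among the granule genes, *Epx* was low, with 0 to 4 counts in each type 1 library and 5 to 19 counts in the IL-4 set. *Prg2* was higher, at 29.5 ± 2.75 CPM (SD, n = 3) in unstimulated cells a to c and 35.1 ± 11.1 in d to f, as was *Ear6*, at 36.6 ± 8.57 and 138 ± 8.74 CPM. *Epx* was at 0 in 5 of the 12 libraries of the type 1 set and *Prg3* in 3. Of 6 markers tested, 1 rose and 1 fell with *E. coli*, 1 rose and 3 fell with IFN-γ, and 1 rose and 3 fell with both stimuli. With IL-4 3 of 10 rose and 2 fell. Marker counts are read beside the shares of all genes tested, of which 13.5% were called higher and 16.7% lower with *E. coli*, 15.6% and 16.0% with IFN-γ, 23.9% and 25.2% with both stimuli, and 5.97% and 4.35% with IL-4. *Il5ra*, the interleukin 5 receptor chain, fell with *E. coli* (log2 fold change −1.35, edgeR adjusted p = 7.58e-07), IFN-γ (−0.37) and both stimuli (−1.28) and rose with IL-4 (0.60, edgeR adjusted p = 0.0204). The other called markers did not all follow *Il5ra*. *Ear6* rose with *E. coli*, both stimuli and IL-4 and fell with IFN-γ. *Prg2* fell with IFN-γ and both stimuli and rose with IL-4, and *Alox15* fell with both stimuli. *Adgre1* rose with IFN-γ, and *Adgre1* and *Ccr3* fell with IL-4.

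Among the 5 Siglecs, *Siglecf* had the highest level in every group. Mean CPM per kilobase of exon in unstimulated cells a to c was 366 for *Siglecf*, 112 for *Siglecg*, 25.3 for *Siglece*, 3.63 for *Siglec1* and 3.22 for *Cd33*. In unstimulated cells d to f the order differed in the middle, at 254 for *Siglecf*, 61.2 for *Siglecg*, 3.91 for *Siglec1*, 3.63 for *Siglece* and 2.94 for *Cd33*. Where a library holds only transcript ends, as the CEL-Seq2 protocol named in the methods gives, scaling by length does not apply. In plain CPM, unstimulated cells a to c had 1020.4 ± 127 (SD, n = 3) for *Siglecf*, 539.9 ± 42.3 for *Siglecg*, 46.7 ± 17.0 for *Siglece*, 25.9 ± 7.63 for *Siglec1* and 25.1 ± 3.07 for *Cd33*. Plain CPM in unstimulated cells d to f was 707 ± 32.2 for *Siglecf*, 294 ± 20.1 for *Siglecg*, 27.9 ± 11.6 for *Siglec1*, 22.8 ± 3.94 for *Cd33* and 6.72 ± 2.71 for *Siglece*. *Siglecf* and *Siglecg* thus led on either scale, and the place of *Siglece* and *Cd33* in unstimulated cells d to f depended on it. All 5 genes passed the low-count filter in each set.

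*Siglecf* (ENSMUSG00000039013), the eosinophil marker receptor, was lower with each type 1 stimulus and higher with IL-4. It stood at 952, 1167 and 942 CPM in unstimulated cells a, b and c, at 659, 622 and 626 CPM with *E. coli*, at 654, 534 and 689.9 CPM with IFN-γ, and at 353, 322 and 371 CPM with IFN-γ and *E. coli*. Every stimulated library was below every unstimulated one, and the 3 libraries with both stimuli were the lowest of the set. *Siglecf* fell with *E. coli* (log2 −0.68, SE 0.12, edgeR adjusted p = 0.000249) and with IFN-γ (log2 −0.70, SE 0.12, edgeR adjusted p = 0.000177). With both stimuli it fell by 1.55 on the log2 scale (SE 0.12, edgeR adjusted p = 7.54e-09), to 34.1% of the unstimulated level. In the IL-4 set *Siglecf* was at 676, 740.2 and 707 CPM in unstimulated cells d, e and f and at 929.7, 907 and 938 CPM with IL-4. The 3 IL-4 libraries lay close together above all 3 unstimulated ones. This rise, 0.39 on the log2 scale (SE 0.10), passed the test narrowly (edgeR adjusted p = 0.0383). The call was lost without unstimulated d (0.35), unstimulated f (0.38), or IL-4 replicate 1 (0.39), 2 (0.39) or 3 (0.36), and without the low-count filter (0.36). Over all alternatives of this result the adjusted p ran from 0.00486 to 0.142.

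The 4 groups of the type 1 set ranked, by mean *Siglecf* level, unstimulated (1020.4 ± 127 CPM, SD, n = 3), *E. coli* (636 ± 20.1), IFN-γ (626 ± 81.9) and both stimuli (348 ± 24.8). *E. coli* and IFN-γ did not differ beyond their spread, with a log2 difference of −0.02 and a 95% interval from −0.28 to 0.23. Because *Siglecf* had 1841 to 2556 counts in unstimulated cells a to c, it is the member nearest to the ceiling of 4095. With counts corrected for a ceiling of 4096 different identifiers, its log2 changes were −0.88 for *E. coli*, −1.004 for IFN-γ and −1.96 for the 2 together, each larger than without the correction. The length of the identifier is not given in the sources used here.

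*Siglecg* (ENSMUSG00000030468), an inhibitory receptor best known from B cells, where it restrains signals of the antigen receptor, had the largest change of the 5 with both stimuli. It was at 516, 589 and 515 CPM in unstimulated cells a, b and c, at 315, 317 and 281 CPM with *E. coli*, at 113, 107 and 90.2 CPM with IFN-γ, and at 55.5, 59.7 and 49.5 CPM with IFN-γ and *E. coli*. The 4 groups formed separate steps with no overlap. The fall with *E. coli* was to 56.5% of the unstimulated level (log2 −0.82, SE 0.11, edgeR adjusted p = 1.11e-05). With IFN-γ the level was lower by a factor of 5.21 (log2 −2.38, SE 0.12, edgeR adjusted p = 2.66e-11). With both it was lower by a factor of 9.79 (log2 −3.29, SE 0.13, edgeR adjusted p = 5.57e-13). In the IL-4 set *Siglecg* was at 286, 317 and 279 CPM in unstimulated cells d, e and f and at 201, 182 and 185 CPM with IL-4. All 3 IL-4 libraries were below all 3 unstimulated ones, and the fall to 64.5% passed the test (log2 −0.63, SE 0.11, edgeR adjusted p = 0.00626). *Siglecg* therefore fell with all 4 treatments. In order of mean level its groups were unstimulated (539.9 ± 42.3 CPM, SD, n = 3), *E. coli* (304 ± 19.8), IFN-γ (103 ± 11.6) and both stimuli (54.9 ± 5.16), and each neighbouring pair differed by a direct test.

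B cell markers moved in part with *Siglecg*. The 11 B cell markers summed to 320.1, 317 and 192 CPM in unstimulated cells a, b and c, to 59.96, 73.6 and 124 CPM with *E. coli*, to 166, 105 and 89.6 CPM with IFN-γ, and to 186, 209.8 and 239 CPM with both stimuli. The sums were lower than in all unstimulated libraries with *E. coli* and with IFN-γ, and overlapped the unstimulated range with both stimuli, where *Siglecg* was lowest. Of 6 markers tested in the type 1 set, 6 fell with *E. coli*, 5 fell with IFN-γ and 0 were called with both stimuli. Of 6 tested in the IL-4 set, with *Cr2* in place of *Cd79a*, 3 rose with IL-4. Of all genes, 16.7% were called lower with *E. coli* and 16.0% with IFN-γ, 23.9% higher and 25.2% lower with both stimuli, and 5.97% higher with IL-4. In the IL-4 set the sums were 61.4, 57.2 and 109.9 CPM in unstimulated cells d, e and f and 131, 118 and 152 CPM with IL-4, while *Siglecg* was lower with IL-4. *Igkc* or *Ighm* was the most abundant marker in each library. The markers at 0 were *Cr2* in 8 libraries, *Pax5* in 4, *Ebf1* in 3, and *Cd22* and *Blk* in 2 each. The part of B cells in the *Siglecg* levels was not tested. In bulk samples such as these, fewer cells of a type cannot be told apart from less RNA per cell.

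*Siglece* (ENSMUSG00000030474), an inhibitory receptor of neutrophils and other myeloid cells, was lowest with IFN-γ alone. Its level was 63.3, 47.5 and 29.3 CPM in unstimulated cells a, b and c, 69.3, 53.5 and 49.9 CPM with *E. coli*, 8.96, 6.66 and 3.92 CPM with IFN-γ, and 24.1, 26.3 and 27.0 CPM with IFN-γ and *E. coli*. IFN-γ libraries stood far below all others, at 6 to 16 counts each. Libraries with both stimuli lay between IFN-γ and unstimulated cells and touched neither. *E. coli* libraries overlapped the unstimulated ones, in which c was well below a. The fall with IFN-γ was by a factor of 7.02 (log2 −2.81, SE 0.31, edgeR adjusted p = 1.30e-06). With both stimuli the log2 fold change was −0.86 (SE 0.25, edgeR adjusted p = 0.00792), and without unstimulated a it was −0.54 and no longer called (adjusted p 0.000148 to 0.0927 over all alternatives). With *E. coli* the log2 fold change of 0.30 (SE 0.21) did not pass (edgeR adjusted p = 0.322). It was 0.04 without unstimulated c and 0.62 without unstimulated a, the ends of its range over single libraries left out, and was called in none of its alternatives (adjusted p 0.0559 to 0.902).

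*Siglece* in the IL-4 set was at 9.16, 3.81 and 7.17 CPM in unstimulated cells d, e and f and at 12.2, 13.8 and 15.6 CPM with IL-4. Each IL-4 library was above each unstimulated one, but the log2 fold change of 1.07 (SE 0.31) missed the threshold (edgeR adjusted p = 0.0562). It was called without unstimulated d (1.33), without the low-count filter (1.05), with a minimum of 10 counts (1.09) and with all 18 libraries in the fit (1.10). The adjusted p ran from 0.0109 to 0.179 over all alternatives. Unstimulated *Siglece* thus stood at 29.3 to 63.3 CPM in one set and at 3.81 to 9.16 CPM in the other. The sets differ in layout and count scale, and what separates their unstimulated cells cannot be told apart from these. Within the type 1 set, *Siglece* ranked *E. coli* (57.6 ± 10.4 CPM, SD, n = 3), unstimulated (46.7 ± 17.0), both stimuli (25.8 ± 1.53) and IFN-γ (6.51 ± 2.52), and the highest pair did not differ beyond its spread.

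*Cd33* (ENSMUSG00000004609), which encodes a receptor that in the mouse can pair with the activating adaptor encoded by *Tyrobp*, changed in opposite directions with *E. coli* and with IFN-γ. It was at 27.2, 21.5 and 26.4 CPM in unstimulated cells a, b and c, at 52.2, 58.2 and 47.9 CPM with *E. coli*, at 10.6, 12.8 and 9.81 CPM with IFN-γ, and at 18.3, 26.8 and 26.4 CPM with IFN-γ and *E. coli*. *E. coli* libraries were the highest and IFN-γ libraries the lowest, without overlap, whereas libraries with both stimuli spread over the unstimulated range. *Cd33* rose with *E. coli* by a factor of 2.09 (log2 1.06, SE 0.16, edgeR adjusted p = 6.65e-05) and fell with IFN-γ (log2 −1.18, SE 0.21, edgeR adjusted p = 0.000312). With both stimuli the log2 fold change was −0.08, with a 95% interval from −0.47 to 0.32 (edgeR adjusted p = 0.765), and it was 0.10 without replicate 1 of that group. *Cd33* in the IL-4 set was at 20.6, 20.5 and 27.4 CPM in unstimulated cells d, e and f and at 26.3, 25.3 and 25.1 CPM with IL-4. The IL-4 libraries lay inside the unstimulated range, at a log2 fold change of 0.16 with a 95% interval from −0.23 to 0.55 (edgeR adjusted p = 0.613). It was 0.08 without unstimulated e and 0.31 without unstimulated f, the ends of its range over single libraries left out, and was called in none of its alternatives (adjusted p 0.327 to 0.858). The order of mean *Cd33* levels was *E. coli* (52.8 ± 5.16 CPM, SD, n = 3), unstimulated (25.1 ± 3.07), both stimuli (23.8 ± 4.83) and IFN-γ (11.1 ± 1.55), and the middle pair did not differ beyond its spread.

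*Siglec1* (ENSMUSG00000027322) encodes sialoadhesin, a long receptor of macrophages without inhibitory motifs. It was at 20.9, 22.2 and 34.7 CPM in unstimulated cells a, b and c, at 14.7, 16.4 and 26.7 CPM with *E. coli*, at 13.4, 12.8 and 11.8 CPM with IFN-γ, and at 4.38, 7.67 and 5.94 CPM with IFN-γ and *E. coli*. Libraries with both stimuli were the lowest, at 6 to 14 counts each, and IFN-γ libraries lay below all others that remain. *E. coli* libraries overlapped the unstimulated ones. *Siglec1* fell with both stimuli by a factor of 4.22 (log2 −2.08, SE 0.32, edgeR adjusted p = 2.75e-05). With IFN-γ it fell by 1.03 on the log2 scale (SE 0.27, edgeR adjusted p = 0.00690), and without unstimulated c the log2 fold change was −0.75 and the call was lost (adjusted p 0.000890 to 0.0569 over all alternatives). With *E. coli* the log2 fold change of −0.46 (SE 0.24) did not pass (edgeR adjusted p = 0.161). It was −0.73 and called without *E. coli* replicate 3 (adjusted p 0.0338 to 0.667 over all alternatives).

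*Siglec1* in the IL-4 set was at 19.4, 23.2 and 41.1 CPM in unstimulated cells d, e and f and at 12.2, 8.47 and 9.33 CPM with IL-4. Every IL-4 library was below every unstimulated one, and unstimulated f stood apart at the top. The fall to 35.6% of the unstimulated level passed the test (log2 −1.49, SE 0.29, edgeR adjusted p = 0.0101). Leaving out IL-4 replicate 2 (−1.38) or 3 (−1.46) ended the call (adjusted p 3.55e-08 to 0.0602 over all alternatives). Groups of the type 1 set ranked unstimulated (25.9 ± 7.63 CPM, SD, n = 3), *E. coli* (19.2 ± 6.48), IFN-γ (12.7 ± 0.840) and both stimuli (6.00 ± 1.65) by mean *Siglec1* level. No pair of neighbours in that order passed a direct test, as the steps from *E. coli* to IFN-γ (edgeR adjusted p = 0.147) and from IFN-γ to both stimuli (edgeR adjusted p = 0.0701) missed the threshold.

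Macrophage markers moved with *Siglec1* in some groups and against it in others. The 12 markers summed to 1014, 881 and 997 CPM in unstimulated cells a, b and c, to 679, 622 and 998 CPM with *E. coli*, to 1278, 1228 and 1182 CPM with IFN-γ, and to 1028, 1092 and 1257 CPM with both stimuli. The sums were thus above all unstimulated libraries with IFN-γ and with both stimuli, where *Siglec1* was lower. With *E. coli*, replicate 3 had the highest marker sum and the highest *Siglec1*. In the IL-4 set the sums were 2113, 2436 and 2720 CPM in unstimulated cells d, e and f and 1946, 1866 and 2146 CPM with IL-4, where unstimulated f again had the highest sum and the highest *Siglec1*. Of 11 markers tested, 0 rose and 5 fell with *E. coli*, 3 rose and 2 fell with IFN-γ, 2 rose and 3 fell with both stimuli, and 0 rose and 4 fell with IL-4. Shares of all genes called higher and lower were 13.5% and 16.7% with *E. coli*, 15.6% and 16.0% with IFN-γ, 23.9% and 25.2% with both stimuli, and 5.97% and 4.35% with IL-4. *Cd5l* fell with *E. coli* (−1.35), both stimuli (−0.73) and IL-4 (−1.16). *C1qb* rose with IFN-γ (1.04) and both stimuli (0.85) and fell with IL-4 (−0.51). The most abundant marker was *Csf1r* in each library of the type 1 set and *C1qc* or *C1qb* in the IL-4 set, and only *Cx3cr1* was at 0, in 11 of the 18 libraries. The part of macrophages in the *Siglec1* levels was not tested.

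**Figure D1:**
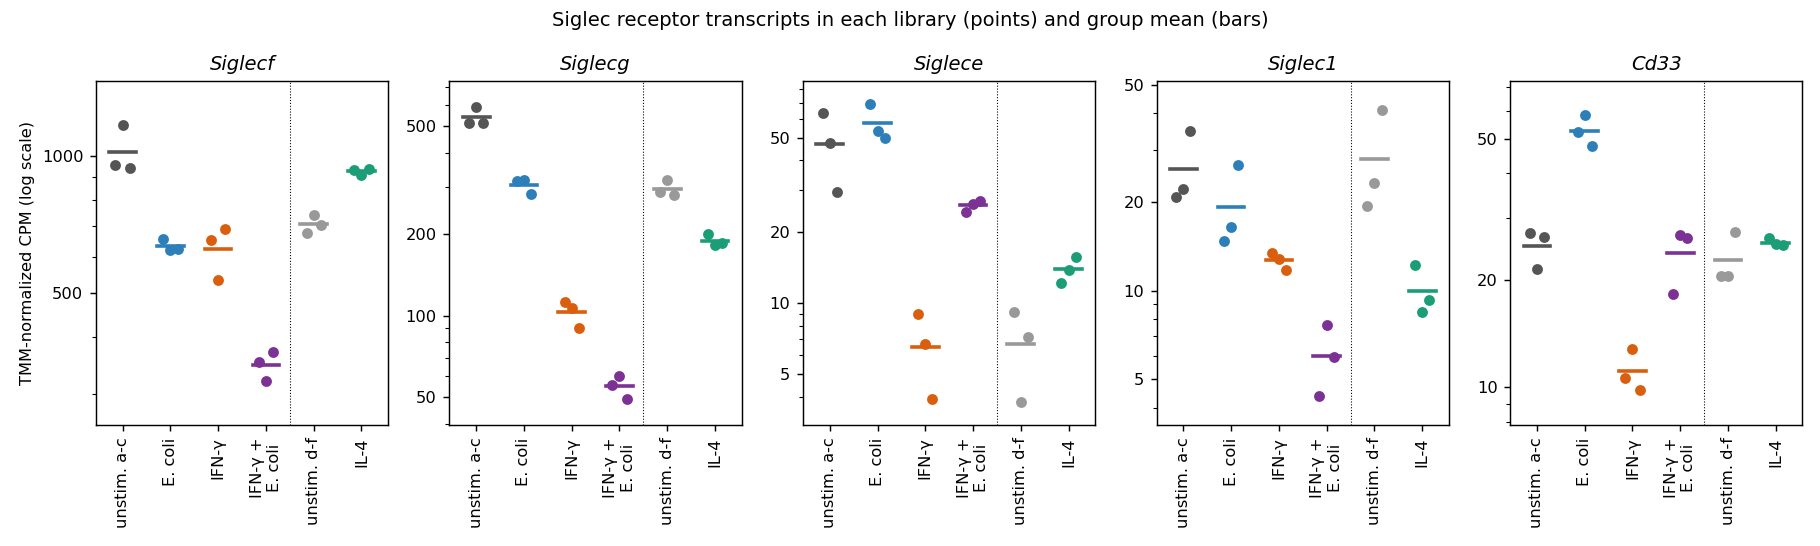
TMM-normalized CPM on a log axis for each of the 5 Siglec genes, 1 point per library and 1 bar per group mean, with a dotted line between the 2 sets of libraries. *Siglecg* steps down from 515–589 CPM in unstimulated cells a to c to 49.5–59.7 CPM with IFN-γ and *E. coli*. *Cd33* is highest with *E. coli* (47.9–58.2 CPM) and lowest with IFN-γ (9.81–12.8 CPM).

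*E. coli* raised 1 of the 5 Siglecs, *Cd33*, and lowered 2, *Siglecf* and *Siglecg*. Among all 9883 genes tested 13.5% were called higher and 16.7% lower in that comparison. The median log2 fold change of the 5 was −0.46, beside −0.02 over all genes tested.

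IFN-γ lowered all 5 Siglecs and raised 0, where 15.6% of all genes were called higher and 16.0% lower. The log2 fold changes ran from −0.70 for *Siglecf* to −2.81 for *Siglece*. The median of the 5 was −1.18, beside −0.03 over all genes.

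IFN-γ with *E. coli* lowered 4 Siglecs, all but *Cd33*, and raised 0, where 23.9% of all genes were called higher and 25.2% lower. The median of the 5 was −1.55, beside −0.04 over all genes. *Siglecg* and *Siglec1* had the largest falls.

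IL-4 raised *Siglecf* and lowered *Siglecg* and *Siglec1*, so that 1 was called higher and 2 lower, where 5.97% of 10556 genes were called higher and 4.35% lower. The median of the 5 was 0.16, beside 0.00 over all genes. Without IL-4 replicate 2 or 3 only *Siglecg* was called, 1 of the 5, where the share of all genes called went from 10.3% to 4.58% and 4.74%. Without unstimulated e, the library that stood apart from its replicates, 12.8% of all genes were called, and *Siglecf* (0.42), *Siglecg* (−0.58) and *Siglec1* (−1.63) were among them, while *Siglece* (0.77) and *Cd33* (0.08) were not.

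Scaling by library totals alone, without TMM, moved the median of all genes by −0.17 with IFN-γ and by −0.25 with both stimuli. The share of called genes that were higher then went from 49.4% to 28.8% with IFN-γ and from 48.7% to 29.7% with both stimuli. Directions of the Siglec changes were the same in these comparisons under that scaling.

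Adding *E. coli* to IFN-γ had opposite effects on different Siglecs. Against IFN-γ alone, 4 of the 5 differed, where 12.2% of all genes were called. *Siglece* was higher with both stimuli by a factor of 3.88 (log2 1.95, SE 0.35, edgeR adjusted p = 0.000924) and *Cd33* by a factor of 2.15 (log2 1.10, SE 0.22, edgeR adjusted p = 0.00284). *Siglecf* was lower (log2 −0.85, SE 0.12, edgeR adjusted p = 0.000131), and so was *Siglecg* (log2 −0.91, SE 0.13, edgeR adjusted p = 0.000139). *Siglec1* had a log2 difference of −1.04 that missed the threshold (edgeR adjusted p = 0.0701). It was −1.07 and called without the low-count filter, with only the 6 libraries compared, and with replicate number as a block. Its adjusted p ran from 0.0301 to 0.189 over all alternatives. Replicates of one number share no source that the labels give.

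Adding IFN-γ to *E. coli* lowered all 5 Siglecs, where 32.8% of all genes were called. The log2 differences were −2.47 for *Siglecg* (SE 0.13, edgeR adjusted p = 4.62e-11), −1.61 for *Siglec1* (edgeR adjusted p = 0.000885), −1.15 for *Siglece* (edgeR adjusted p = 0.00114), −1.14 for *Cd33* (edgeR adjusted p = 4.90e-05) and −0.87 for *Siglecf* (edgeR adjusted p = 2.02e-05). In each case the 3 libraries with both stimuli were below the 3 *E. coli* libraries. IFN-γ against *E. coli* lowered 3, where 25.5% of all genes were called. The log2 differences were −3.11 for *Siglece* (edgeR adjusted p = 2.19e-07), −2.24 for *Cd33* (edgeR adjusted p = 4.61e-08) and −1.56 for *Siglecg* (edgeR adjusted p = 7.09e-09). *Siglecf* changed sign but stayed near 0 when *E. coli* replicate 1 (0.00) or IFN-γ replicate 2 (0.09) was left out.

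Whether *E. coli* acts on a Siglec to the same extent with and without IFN-γ was tested as an interaction. It was called for 1 of the 5, *Siglece*, where 4.62% of all genes were called. The effect of *E. coli* on *Siglece* was larger with IFN-γ than without by 1.66 on the log2 scale (SE 0.41, 95% interval 0.79 to 2.53, edgeR adjusted p = 0.0254). This call was lost without unstimulated a (1.33), *E. coli* replicate 2 (1.59), IFN-γ replicate 2 (1.63) or 3 (1.41), or replicate 2 of both stimuli (1.63), so that 0 of the 5 were then called. In the same order 2.64%, 2.65%, 3.16%, 3.25% and 2.89% of all genes were called. The adjusted p of *Siglece* ran from 0.000236 to 0.0890 over all alternatives. For *Siglecg* the interaction was −0.09 (95% interval −0.44 to 0.27), for *Siglecf* −0.16 (−0.52 to 0.19), for *Cd33* 0.04 (−0.52 to 0.60) and for *Siglec1* −0.58 (−1.503 to 0.34). The falls of *Siglecg* and *Siglecf* with each stimulus thus added up on the log2 scale to within these intervals. Scaling without TMM moved the median of all genes by −0.23 for both stimuli against *E. coli* and by −0.15 for IFN-γ against *E. coli*. The share of called genes that were higher then went from 53.2% to 27.8% and from 55.2% to 35.6%. For both stimuli against IFN-γ it went from 51.1% to 35.2%, and for the interaction from 55.8% to 45.5%.

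The response to IL-4 was set against each type 1 response by a test of the difference between log2 fold changes, over all 18 libraries. Against IFN-γ with *E. coli*, 3 Siglecs had a higher log2 fold change with IL-4, where 39.2% of 10671 genes were called. Among the 3, *Siglecg* fell with IL-4 as well, only by less, and the rise of *Siglece* with IL-4 was not called. The differences were 2.60 for *Siglecg* (edgeR adjusted p = 9.57e-11), 1.88 for *Siglecf* (edgeR adjusted p = 6.87e-09) and 1.88 for *Siglece* (edgeR adjusted p = 0.000714). *Cd33* (0.17, edgeR adjusted p = 0.620) and *Siglec1* (0.53, edgeR adjusted p = 0.399) did not pass. Leaving out 1 library gave 0.022 to 0.33 for *Cd33* and 0.24 to 0.92 for *Siglec1*, without a call. Against IFN-γ alone 4 passed, all but *Siglec1*, where 27.8% of all genes were called. The difference was 3.87 for *Siglece* (edgeR adjusted p = 1.08e-06), 1.72 for *Siglecg*, 1.30 for *Cd33* and 1.06 for *Siglecf*. Against *E. coli* 2 passed, where 28.1% of all genes were called, with *Siglecf* at 1.05 (edgeR adjusted p = 3.21e-05) and *Cd33* at −0.92 (edgeR adjusted p = 0.00523).

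*Siglec1* in this last difference was at −1.05 (edgeR adjusted p = 0.0536). It was called, at −1.18 to −1.34, without unstimulated c, *E. coli* replicate 1, unstimulated d, unstimulated e or IL-4 replicate 1. Its adjusted p ran from 0.0186 to 0.182 over all alternatives. *Siglece* was at 0.77 and was called, at 1.02, without unstimulated c (adjusted p 0.0387 to 0.427 over all alternatives), so that 4 of the 5 Siglecs passed without that library, where 25.05% of all genes were called. These differences compare responses across sets whose counts may not be on one scale.

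**Figure D2:**
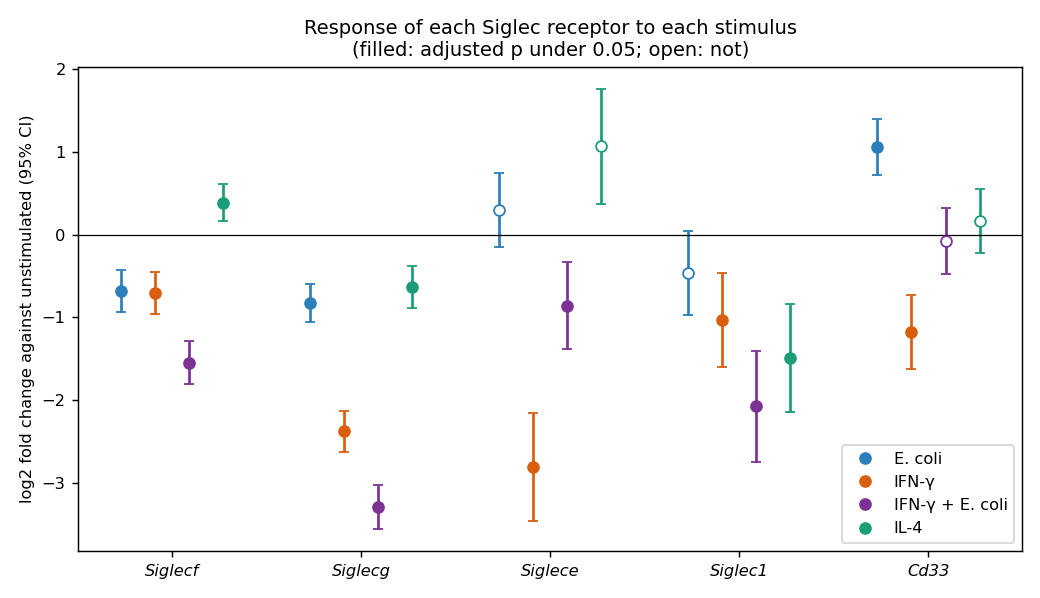
Log2 fold change of each Siglec gene against unstimulated cells of the same set, with 95% intervals from the edgeR quasi-likelihood fit. All 5 are below 0 with IFN-γ, *Cd33* is at 1.06 with *E. coli* and −0.08 with both stimuli, and *Siglecf* is at −1.55 with both stimuli and 0.39 with IL-4.

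Of 4 other Siglec genes, 1 was tested. *Mag*, known from myelin, was at 42.3 ± 9.79 CPM (SD, n = 3) in unstimulated cells a to c, 27.3 ± 3.55 with IFN-γ and 24.6 ± 2.00 with both stimuli. It fell with IFN-γ (log2 −0.64, edgeR adjusted p = 0.0123) and with both stimuli (−0.78, edgeR adjusted p = 0.00201). With *E. coli* (−0.28) and IL-4 (0.18) it did not pass. *Cd22* of B cells had 0 to 13 counts per library. *Siglech* of plasmacytoid dendritic cells had 2 to 14 counts per library in the type 1 set and 0 in all 6 libraries of the IL-4 set. *Siglec15* was at 0 in 17 libraries and at 2 counts in unstimulated f.

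The signalling partners of Siglecs were measured in full, with 10 of 10 tested. With *E. coli* 2 rose and 1 fell, with IFN-γ 1 and 1, with both stimuli 4 and 2, and with IL-4 1 and 1. Median log2 fold changes were −0.02, 0.18, 0.17 and −0.11, beside −0.02, −0.03, −0.04 and 0.00 over all genes. The counts called in this and the next lists stand beside the shares of all genes given above for each comparison, and they tell nothing particular to a list. *Ptpn11*, the phosphatase bound by phosphorylated inhibitory motifs, rose with *E. coli* (0.71, edgeR adjusted p = 2.69e-05) and with both stimuli (0.36, edgeR adjusted p = 0.00843). *Socs3*, a feedback inhibitor of cytokine signalling, rose with *E. coli* (2.00), both stimuli (2.31) and IL-4 (1.32). The adaptor gene *Hcst* fell with *E. coli* (−1.26), IFN-γ (−0.99) and both stimuli (−1.60). *Tyrobp*, the adaptor that pairs with mouse Cd33, fell with IL-4 (−0.43). *Syk* rose with IFN-γ (0.31) and both stimuli (0.26). With both stimuli *Cbl* rose (0.39) and *Csk* fell (−0.66).

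Sialic acid, the ligand, is made by a short set of enzymes. Of the sialic acid synthesis genes 5 of 6 were tested, without *Nanp*, and 0 rose in any comparison. With *E. coli* 1 fell, with IFN-γ 1, with both stimuli 3 and with IL-4 0, at medians of −0.57, −0.57, −0.87 and 0.46. *Gne*, which encodes the enzyme that starts sialic acid synthesis, fell with IFN-γ (−0.91, edgeR adjusted p = 0.0383) and with both stimuli (−2.16, edgeR adjusted p = 0.000179). *Gne* went from 12.9 ± 3.71 CPM (SD, n = 3) in unstimulated cells a to c to 2.76 ± 1.65 with both stimuli. This is close to the floor of 3 counts, at 1.64 to 2.19 CPM in the libraries with both stimuli. *Cmas*, which activates sialic acid, fell with *E. coli* (−0.62) and both stimuli (−0.87), as with both stimuli did *Slc35a1*, its Golgi transporter (−1.30). Of the sialyltransferases, which place sialic acid on glycans, 9 of 20 were tested in the type 1 set and 10 in the IL-4 set. With *E. coli* 3 rose and 2 fell, with IFN-γ 2 and 4, with both stimuli 3 and 4, and with IL-4 0 and 1, at medians of −0.21, −0.22, −0.31 and −0.45. Not tested in either set were *St3gal6*, *St6gal2*, *St6galnac1*, *St6galnac3*, *St8sia1*, *St8sia2*, *St8sia3*, *St8sia5* and *St8sia6*, *St6galnac6* was tested only in the IL-4 set, and *St6galnac2* was not listed.

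*St3gal5*, the synthase of ganglioside GM3, fell with *E. coli* (−1.47, edgeR adjusted p = 7.64e-05) and IL-4 (−1.02, edgeR adjusted p = 0.0194) and rose with IFN-γ (1.41, edgeR adjusted p = 1.04e-05) and both stimuli (1.51, edgeR adjusted p = 2.10e-06). *St3gal4* went from 142 ± 3.48 CPM (SD, n = 3) to 188 ± 17.2 after *E. coli*, 58.0 ± 8.18 after IFN-γ and 38.8 ± 3.17 with both stimuli, at log2 fold changes of 0.40 (edgeR adjusted p = 0.0102), −1.29 and −1.87. Of the genes that remove or trim sialic acid, 3 of 6 were tested in the type 1 set and 2 in the IL-4 set. With *E. coli* 1 fell, with IFN-γ 2, with both stimuli 2 and with IL-4 0, and 0 rose, at medians of −0.29, −0.91, −1.17 and 0.36. *Siae*, a sialic acid esterase, fell with *E. coli* (−1.77), IFN-γ (−1.79) and both stimuli (−2.26), and *Neu1*, the lysosomal sialidase, with IFN-γ (−0.91) and both stimuli (−1.17). Those without enough counts were *Neu2*, *Neu4* and *Npl*, and in the IL-4 set *Neu3*.

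Carriers of Siglec ligands were tested for 5 of 8 genes, without *Muc4*, *Muc5b* and *Chst1*. With *E. coli* 0 rose and 1 fell, with IFN-γ 0 and 2, with both stimuli 1 and 3, and with IL-4 1 and 1, at medians of −0.17, −0.17, −0.45 and 0.23. *Spn*, which encodes the sialomucin CD43, fell with IFN-γ (−1.03) and both stimuli (−1.41) and rose with IL-4 (0.63, edgeR adjusted p = 0.0327). *Cd24a*, which encodes a binding partner of Siglec-G, fell with IL-4 (−0.39, edgeR adjusted p = 0.0452) and was not called with *E. coli* (−0.18), IFN-γ (0.17) or both stimuli (0.02). Of 12 other receptors with inhibitory motifs 10 were tested, without *Cd72* and *Cd5*. With *E. coli* 2 rose and 3 fell, with IFN-γ 1 and 3, with both stimuli 2 and 4, and with IL-4 1 and 3, at medians of −0.02, −0.11, −0.23 and −0.28. *Clec12a* went from 374 ± 75.1 CPM (SD, n = 3) in unstimulated cells to 5.30 ± 1.15 with both stimuli (−6.12, edgeR adjusted p = 1.52e-12). *Clec12a* also fell with *E. coli* (−3.76) and IFN-γ (−3.31). *Pilra* rose with *E. coli* (2.58) and both stimuli (2.30) and fell with IL-4 (−1.33), and *Lair1* fell with *E. coli* (−1.43) and rose with IFN-γ (3.83) and both stimuli (3.16).

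Markers of other cell types that the samples could hold are given beside these levels. T cell markers summed to at most 9.32 CPM in a library, led by *Cd3d*, with *Cd3e* and *Cd8a* at 0 in 15 of the 18 libraries, and the 1 tested was not called with any stimulus. Neutrophil markers, a cell type that carries Siglec-E, summed to 575–709.8 CPM in unstimulated cells a to c, 425–487 with *E. coli*, 635–744 with IFN-γ, 352–435 with both stimuli, 1681–1999 in unstimulated cells d to f and 769.6–834 with IL-4, mostly *Retnlg*. *Retnlg* fell with *E. coli* (−1.02), both stimuli (−0.90) and IL-4 (−1.30) and was not called with IFN-γ (0.08). Without it the sums of the same groups were 34.2–44.6, 130.1–213, 67.7–79.8, 70.8–111, 19.9–22.7 and 41.7–62.7 CPM. Of 4 tested, 2 rose and 1 fell with *E. coli*, 2 rose and 1 fell with IFN-γ, and 2 rose and 2 fell with both stimuli, while *Ltf* was at 0 in 14 libraries. With IL-4 1 of 5 neutrophil markers rose and 1 fell. *Cxcr2* rose with *E. coli* (1.73), fell with IFN-γ (−1.76) and both stimuli (−0.73) and rose with IL-4 (3.09). *S100a8* rose with *E. coli* (3.06), IFN-γ (2.20) and both stimuli (2.71), and *Ly6g* with IFN-γ (2.27) and both stimuli (1.63). Mast cell markers summed to 6.63–34.6 CPM except with IFN-γ and *E. coli*, where they reached 37.2–74.0 CPM and 2 of 2 tested rose. With both stimuli *Tpsb2* led in replicate 1 and *Cma1* in replicates 2 and 3. *Mcpt4* was at 0 in 11 libraries. With IFN-γ 1 of the 2 rose, and with *E. coli* and IL-4 0 were called. Dendritic cell markers summed to 516–1768 CPM, led by *Bst2*, and to at most 52.7 CPM without it, with *Clec9a* and *Cd209a* at 0 in 9 libraries. Of 2 tested, 1 fell with *E. coli*, 1 fell with IFN-γ, and 1 rose and 1 fell with both stimuli. With IL-4 2 of 4 rose. The part of these cells in the Siglec levels was not tested.

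Genes with the most similar pattern over the 12 libraries of the type 1 set were ranked by Pearson correlation of log2 CPM, as a description without a test, since libraries of a group share their treatment. For *Siglecg* these were *Bank1* (r = 0.989), a B cell scaffold gene, *Sytl1* (0.985) and *Fbxo9* (0.985). For *Siglecf* they were *Aes* (0.986), *Unc119* (0.985) and *Ap1s2* (0.984). For *Siglece* they were *Hacd3* (0.950), *Hp* (0.924), the haptoglobin gene, and *Herpud1* (0.922). For *Cd33* they were *Dtx4* (0.953), *Degs1* (0.943) and *Pgf* (0.942), and for *Siglec1* *Abcc10* (0.946), *Cox15* (0.940) and *Sema7a* (0.934). Over the 6 libraries of the IL-4 set the nearest gene was *Pecam1* (0.997) for *Siglecf*, *Dnah2* (0.998) for *Siglecg*, *Dtnb* (0.998) for *Siglece*, *Hdac8* (0.990) for *Cd33* and *Slc37a2* (0.997) for *Siglec1*.

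In the genome (GRCm38) 4 of the 5 genes lie together on chromosome 7, and *Siglec1* lies at chr2:131069220-131086765 on the minus strand. *Siglecf* (chr7:43351341-43359531) and *Siglecg* (chr7:43408204-43418358) are on the plus strand, and *Cd33* (chr7:43524216-43544428) and *Siglece* (chr7:43651070-43660161) on the minus strand. No exon of the 5 overlaps an exon of another gene. By sequence, only *Siglecg* has a near-identical match elsewhere, at 95% identity or more over at least 200 bases. This is the processed pseudogene *Gm29791*, which had 0 counts in all 18 libraries.

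Genes of the chromosome 7 cluster did not share a direction throughout, since *Cd33* rose with *E. coli* where *Siglecf* and *Siglecg* of the same region fell. Of 5 other genes tested within 500 kb of the chromosome 7 Siglecs, 0 were called with *E. coli*. *Etfb*, a gene of mitochondrial electron transfer, was the only one called with IFN-γ (−1.15, edgeR adjusted p = 0.000229) and with both stimuli (−1.76, edgeR adjusted p = 2.86e-06). With IL-4 1 of 7 was called, *Ceacam18*, which rose (2.88, edgeR adjusted p = 0.0208) and lies 1775 bases from *Siglece*. Within 500 kb of *Siglec1*, 2 of 13 genes rose and 2 fell with *E. coli*, 3 and 2 with IFN-γ, 3 and 2 with both stimuli, and 0 and 1 of 14 with IL-4. Of all genes tested, 30.2% were called in either direction with *E. coli*, 31.6% with IFN-γ, 49.0% with both stimuli and 10.3% with IL-4. Beside these shares the counts of neighbours on either chromosome tell nothing particular to these regions. *Atrn*, 38887 bases from *Siglec1*, rose with *E. coli* (0.94), IFN-γ (0.72) and both stimuli (0.92).

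**Figure D3:**
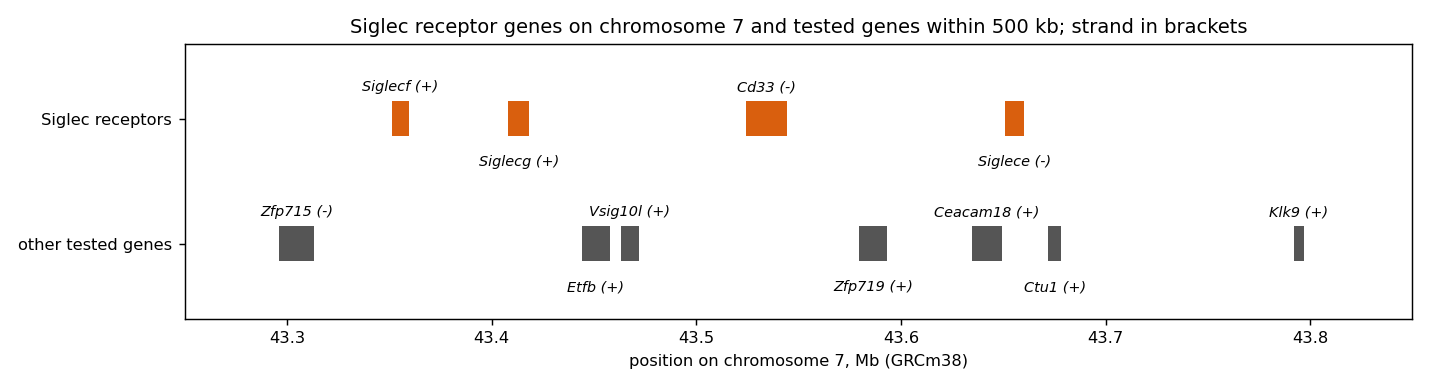
Map of part of mouse chromosome 7 (GRCm38, position in megabases), with bars from the start to the end of each of the 4 Siglec genes in the upper line and of 7 other tested genes within 500 kb in the lower line, and the strand in brackets. *Siglecf* and *Siglecg* lie on the plus strand and *Cd33* and *Siglece* on the minus strand, and *Ceacam18* is 1775 bases from *Siglece*.

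Promoters, from 250 bases before to 50 bases after the gene start, were read from a set of RefSeq windows (GRCm38.p6). The set used here held 4 of the 5 genes, without *Siglec1*. RefSeq's start of *Cd33*, 43533171, lies 11257 bases inside the gene as GENCODE draws it, and is the start of 1 of its 6 GENCODE transcripts. The window of *Cd33* is thus that of an inner start, and the outer start was not searched. *Siglecg* had 2 windows, the first of which was used. *Siglecf* and *Cd33*, which moved in opposite directions with *E. coli*, share 3 runs of 12 bases or more, and their windows are printed for that reason, with the shared runs in capitals. The window of *Siglecf* is chr7:43351091-43351390 on the plus strand and that of *Cd33* is chr7:43533122-43533421 on the minus strand, each printed 5′ to 3′ on its own strand.
Siglecf: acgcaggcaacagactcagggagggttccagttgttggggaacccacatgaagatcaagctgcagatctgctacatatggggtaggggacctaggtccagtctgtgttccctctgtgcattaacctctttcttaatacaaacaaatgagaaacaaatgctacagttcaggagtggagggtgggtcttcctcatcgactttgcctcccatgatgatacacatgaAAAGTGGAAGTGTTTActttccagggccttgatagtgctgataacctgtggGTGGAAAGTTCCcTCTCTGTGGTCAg
Cd33: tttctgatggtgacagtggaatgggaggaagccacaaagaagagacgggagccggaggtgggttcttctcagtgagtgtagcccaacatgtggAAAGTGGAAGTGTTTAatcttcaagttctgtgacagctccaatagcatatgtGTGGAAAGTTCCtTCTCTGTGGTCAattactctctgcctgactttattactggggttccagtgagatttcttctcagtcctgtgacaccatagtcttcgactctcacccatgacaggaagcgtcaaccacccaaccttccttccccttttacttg

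The longest run, AAAGTGGAAGTGTTTA, has 16 bases, at positions 224–239 of the *Siglecf* window and 94–109 of the *Cd33* window, and stands in 2 of 27025 promoters. GTGGAAAGTTCC (positions 275–286 and 146–157) also stands in 2 promoters and TCTCTGTGGTCA (288–299 and 159–170) in 6. Positions count from 1 at the 5′ end of the window. Counts are over 1 promoter per gene symbol. They include the windows of *Siglecf* and *Cd33*, in which the runs were found, so that 2 is the lowest count possible. The shorter runs lie after the gene start in *Siglecf* and before the inner start in *Cd33*. Other pairs of the 4 windows share at most 8 to 10 bases in a row.

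The 4 windows were searched on both strands for 5 motifs. TTC and GAA with 3 bases between them, a form bound by STAT factors, stand in 8.47% of all promoters and in 0 of the 4. With 4 bases between, as STAT6 prefers, they stand in 6.99% and in 0 of the 4. GAAA and again GAAA with 2 bases between, as interferon regulatory factors bind, stands in 3.49% and in 0 of the 4. GGG and CC with 5 bases between, an NF-κB type, stand in 50.4% of all promoters, 3 times in *Siglece* and 0 times in the other 3. GATA with A or T before and A or G after, as bound by the eosinophil factor GATA1, stands in 30.2%, in *Siglecf* 2 times (starting at positions 253 and 262, after the gene start) and 0 times in the other 3. No match overlapped a match of another motif. A match is a description of letters, and no match says nothing about a factor.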

How the data were processed

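The authors deposited raw counts per Ensembl gene for each of the 18 libraries, without normalization. The submitters' processing notes name fastp 0.20.1, STAR 2.7.2a, TopHat2 2.1.0 and HTSeq 0.6.1 on GRCm38, and do not say which applied to which libraries or whether molecular identifiers were collapsed. HTSeq's summary lines, kept in the 12 files of the type 1 set, were left out. Reads there that named no gene or were ambiguous made up 21.1% to 39.4% of the reads in these lines and the gene counts together. IDs were matched to symbols by Ensembl 97 names, for 98.3% and 99.7% of those listed in the 2 sets.

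Genes were kept by filterByExpr and compared with edgeR 4.0.16 in R 4.3.3 (TMM, quasi-likelihood test, Benjamini-Hochberg adjustment over all genes tested, called at an adjusted p under 0.05, no fold threshold). One fit held the 12 libraries of the type 1 set (9883 genes), another the 6 of the IL-4 set (10556), and the last all 18 (10671) for differences between responses. The likeness measure was Pearson's r of log2 CPM with a prior count of 2. The members, gene lists and marker lists were chosen with earlier results of these data known. Named from each list were mainly the up to 4 called genes with the largest change in a comparison, of which some are printed. Some genes are printed for further comparisons as well. From each marker list the most abundant gene and markers at 0 were also named.

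Alternatives were DESeq2 1.42.0 and its size factors, other filters, a factor of 2, fewer or more libraries in the fit, a replicate block and leaving out each library. A ceiling correction (a count c replaced by −K·ln(1−c/K), K being 4096) and scaling without TMM were chosen after seeing the data. Near-identical sequences were sought with BLAST in the annotated transcripts, and neighbours within 500 kb.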

Additional observations from a re-analysis of the deposited data

Results flagged for a closer look

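The effect of *E. coli* on *Siglece* differed with and without IFN-γ by the interaction test of edgeR. The difference was 1.66 on the log2 scale (95% interval 0.79 to 2.53, edgeR adjusted p = 0.0254). The call was lost when any of 5 libraries was left out: unstimulated a (1.33), *E. coli* replicate 2 (1.59), IFN-γ replicate 2 (1.63) or 3 (1.41), or replicate 2 of both stimuli (1.63). Its adjusted p was 0.000236 to 0.0890 over all alternatives. *Siglece* was at 46.7 ± 17.0 CPM (SD, n = 3) in unstimulated cells and 57.6 ± 10.4 with *E. coli*, but at 6.51 ± 2.52 with IFN-γ and 25.8 ± 1.53 with both stimuli. The 3 IFN-γ libraries had 6 to 16 counts of *Siglece* each. What lies behind the difference was not tested.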

How the results depend on the processing

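Of 776 log2 fold changes of the 5 Siglecs under alternatives, 726 kept their direction and their side of the threshold, 24 lost a call, 14 gained one and 12 changed sign. The cause was not tested unless the alternative's construction shows it.

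Asking for a factor of 2 as well ended the calls of *Siglecf* (−0.68) and *Siglecg* (−0.82) with *E. coli*, leaving 1 member called, of *Siglecf* with IFN-γ (−0.70), of *Siglece* with both stimuli (−0.86), and of *Siglecf* (0.39) and *Siglecg* (−0.63) with IL-4, leaving 1. For both stimuli against IFN-γ it ended *Siglecf* (−0.85) and *Siglecg* (−0.91), leaving 2, and against *E. coli* *Siglecf* (−0.87). The share of all genes called went from 30.2% to 10.4% with *E. coli*, from 31.6% to 12.01% with IFN-γ, from 49.0% to 22.4% with both stimuli and from 10.3% to 4.53% with IL-4. For both stimuli it went from 12.2% to 4.09% against IFN-γ and from 32.8% to 13.4% against *E. coli*.

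A minimum of 10 counts in every library left *Siglec1* and *Siglece* untested in the type 1 set, so that they have no value there. Members called were then 3 with IFN-γ, 2 with both stimuli, 3 for both stimuli against *E. coli* and 0 for the interaction, where 32.1%, 51.1%, 35.6% and 5.89% of 7399 genes were called. *Siglece* with IL-4 was called (1.09). Without a filter, *Siglece* with IL-4 (1.05) and *Siglec1* for both stimuli against IFN-γ (−1.07) were called, *Siglecf* with IL-4 was not (0.36), and the *Cd33* interaction was −0.030. All 18 libraries in the fit called *Siglece* with IL-4 (1.10). The 6 libraries compared, and the replicate block, called *Siglec1* for both stimuli against IFN-γ (−1.07 in each). The *Siglecg* interaction was 0.0029 after the ceiling correction, and the *Cd33* interaction −0.016 without TMM. None of these interactions was called.

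Leaving out 1 library gave, for *Siglec1*, −0.73 to −0.18 with *E. coli*, −1.19 to −0.75 with IFN-γ, −1.68 to −1.10 with IL-4 and −1.34 to −0.66 for IL-4 minus *E. coli*. For *Siglece* it gave −1.12 to −0.54 with both stimuli, 0.77 to 1.33 with IL-4, 1.33 to 1.93 for the interaction and 0.45 to 1.02 for IL-4 minus *E. coli*. *Siglecf* ran from 0.35 to 0.42 with IL-4 and from −0.098 to 0.091 for IFN-γ against *E. coli*. *Cd33* ran from −0.17 to 0.096 with both stimuli and from −0.069 to 0.16 for the interaction. The interaction also ran from −0.87 to −0.31 for *Siglec1*, from −0.30 to −0.11 for *Siglecf* and from −0.19 to −0.033 for *Siglecg*. Members called ran from 1 to 3 with IL-4, 0 to 1 for the interaction and 2 to 4 for IL-4 minus *E. coli*, where the share of all genes called ran from 4.46% to 12.8%, 2.64% to 5.52% and 21.3% to 29.6%. Low counts limit *Siglec1* with both stimuli (6 to 14 counts) and *Siglece* with IFN-γ (6 to 16 counts).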
